A study of Rattus norvegicus with 46 samples.

Results

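Arc (Activity-regulated cytoskeleton-associated protein) is an immediate early gene, and its RNA level differed widely among frontal lobe pieces of rats that had been given chlorpyrifos or vehicle. The pieces with the most and the least Arc were compared here, whatever the dose. The 2 groups hold 20 of the 46 deposited arrays: 10 Arc-high and 10 Arc-low. They were chosen by the Arc signal itself, so Arc describes the groups and is not counted among the results.

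The animals were adult male Fisher 344 (F344) rats of 11 to 12 weeks that had received vehicle (0 mg/kg) or chlorpyrifos once. Chlorpyrifos is an organophosphate insecticide that blocks acetylcholinesterase. The work ran as 3 experiments, A to C. At 96 hours after dosing a frontal lobe piece of roughly 30 mg was taken from each animal, and its RNA went onto 1 Affymetrix array. The Arc-high arrays were, in experiment A, 2 vehicle animals and 4 given 10 mg/kg, and in experiment B, 1 vehicle animal, 2 given 0.5 mg/kg and 1 given 30 mg/kg. The Arc-low arrays were, in A, 3 animals given 1 mg/kg and 2 given 50 mg/kg, in B, 1 vehicle animal and 1 each given 0.5 and 30 mg/kg, and in C, 1 each given 1 and 5 mg/kg. Vehicle animals made up 3 of 10 Arc-high and 1 of 10 Arc-low arrays (Fisher's exact test, two-sided, p = 0.582). In experiment A no dose held arrays of both groups, so dose and Arc group cannot be told apart there. In experiment B vehicle, 0.5 and 30 mg/kg each held both.

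Neurons switch on immediate early genes within minutes of strong synaptic input, without new protein synthesis. Calcium entry through glutamate receptors drives kinase cascades that act on transcription factors already present, among them CREB and serum response factor. The first transcripts encode further transcription factors such as Fos, Junb, Egr1 and Nr4a1, as well as effectors such as Arc, Homer1 and phosphatases of the Dusp family. Arc protein moves to active synapses, where it promotes removal of AMPA receptors from the membrane. The RNAs are short-lived, so their level in a piece of cortex reflects the recent past.

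Of the 46 arrays, 39 had a median correlation with the others of 0.5 or more over log2 intensities and were ranked. The other 7 shared no pattern of probe sets with them (correlations of -0.0068 to 0.0025, against 0.935 to 0.979 among the 39) and were left out. For each array the Arc value (1 probe set, 1387068_at) was divided by the array's median, put on the log2 scale and set against the mean of its experiment. Arc intensity in the Arc-high arrays had a median of 1821.95 (1391.1 to 2638.5) and in the Arc-low arrays a median of 749.6 (441.2 to 973.1). No array of one group reached the range of the other. The deviations from the experiment mean ran from 0.36 to 1.26 in the Arc-high and from -1.36 to -0.39 in the Arc-low group. Around the limits of the groups the values ran on without a step on the upper side. The last Arc-high array stood at 0.359 and the next array outside at 0.330, while the first Arc-low array stood at -0.389 and the next outside at -0.252. Both lowest arrays came from experiment A, at 1 mg/kg (animal 2) and 50 mg/kg (animal 3). The 19 arrays of neither group, 3 from A, 4 from B and 12 from C, lie between these limits and played no part in the group comparison.

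**Figure D1:**
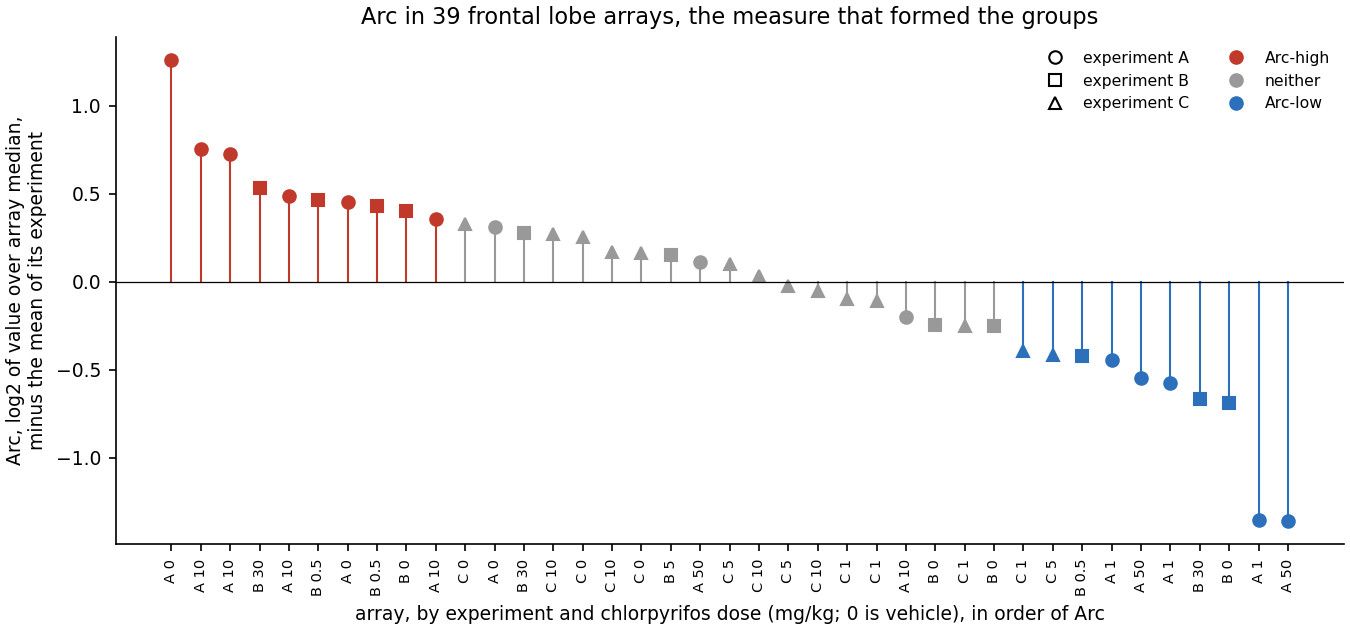
Arc by array, in order, as log2 of the value over the array median minus the mean of the experiment. Each stem is 1 of 39 arrays, with colour for the Arc group and marker shape for the experiment. The Arc-high arrays lie between 0.36 and 1.26 and the Arc-low arrays between -1.36 and -0.39, and 2 arrays of experiment A stand below the rest.

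Array-wide measures overlapped between the groups as a whole. Array medians were 260.2 to 276.2 in the Arc-high and 256 to 274.35 in the Arc-low arrays, though within experiment B they were 270.1 to 276.2 against 262.9 to 267.8, without overlap. With the array median as a covariate the Nr4a1 difference described below was 1.03 (adjusted p = 0.00287 in limma). The 3′ to 5′ signal ratio of beta-actin, a measure of RNA length, was 1.37 to 1.85 against 1.24 to 2.15, and that of Gapdh 1.02 to 1.17 against 1.01 to 1.24. An array of neither group (C, 1 mg/kg, animal 1) had a beta-actin ratio of 4.72. Of 28 listed genes of cortical projection neurons 18 were tested. Their mean log2 level was 10.10 to 10.37 in the Arc-high and 9.78 to 10.25 in the Arc-low arrays of experiment A. In B it was 10.16 to 10.29 against 10.12 to 10.27. The Arc-low animals 3 and 4 at 50 mg/kg in A had 9.78 and 9.95, below every Arc-high array. Both are among the arrays rich in oxytocin and vasopressin RNA described below. Without detection calls the means do not show which of these genes were present. Values below are quantile normalized log2 intensities, and differences are Arc-high minus Arc-low ± SE from a limma fit with experiment as a term. A transcript passed at a Benjamini-Hochberg adjusted p under 0.05 over the 11105 probe sets tested. The number of arrays limits the precision, and the 2 low arrays of experiment C add only to the estimate of spread.

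Only 7 of 11105 probe sets passed (0.063%), all of them higher in the Arc-high pieces. With an unadjusted p under 0.05 there were 774 higher (6.97%) and 720 lower probe sets (6.48%), and 50.9% of all probe sets had a positive difference. The 3 named ones were Nr4a1, Dusp1 and Clec11a. The remaining 4, 1367959_a_at, 1387010_s_at, 1390727_at and 1389059_at, carry no single gene symbol in the platform table, with differences of 0.53 to 0.64. Their adjusted p-values in limma were 0.00288 to 0.0141. Among the members of the immediate early list, 1 of 21 tested passed, and among the activity-regulated effectors 1 of 30.

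Promoter sequence is shown for Nr4a1 and Dusp1, which passed, and for Junb and Egr2, which had positive slopes on Arc at an unadjusted p under 0.05, but an adjusted p of 0.998, in the arrays of neither group. Each run gives the 250 bases before the annotated start, 5′ to 3′ along the gene, from RefSeq (GRCr8). Capitals mark the core of the cAMP response element, the site that CREB binds (TGACG, or CGTCA where it lies on the opposite strand), and in Egr2 also the CArG box, the site of serum response factor.

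Nr4a1, chr7:134259888-134260137, plus strand: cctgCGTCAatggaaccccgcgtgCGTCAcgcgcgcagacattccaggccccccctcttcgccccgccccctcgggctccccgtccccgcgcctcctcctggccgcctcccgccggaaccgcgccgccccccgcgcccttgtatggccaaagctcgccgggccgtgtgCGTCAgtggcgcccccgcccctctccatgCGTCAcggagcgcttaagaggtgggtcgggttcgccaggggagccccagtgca

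Dusp1, chr10:17184603-17184852, plus strand: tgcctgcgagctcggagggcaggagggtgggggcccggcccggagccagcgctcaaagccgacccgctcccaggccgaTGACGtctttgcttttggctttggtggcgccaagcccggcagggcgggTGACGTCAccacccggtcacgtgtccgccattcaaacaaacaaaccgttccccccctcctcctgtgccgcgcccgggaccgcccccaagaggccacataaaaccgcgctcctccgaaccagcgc

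Junb, chr19:40080876-40081125, plus strand: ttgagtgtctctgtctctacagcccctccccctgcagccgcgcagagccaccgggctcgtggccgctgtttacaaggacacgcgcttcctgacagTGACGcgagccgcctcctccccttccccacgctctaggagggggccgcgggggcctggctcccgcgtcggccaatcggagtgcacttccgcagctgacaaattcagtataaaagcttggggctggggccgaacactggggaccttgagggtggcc

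Egr2, chr20:21054442-21054691, minus strand: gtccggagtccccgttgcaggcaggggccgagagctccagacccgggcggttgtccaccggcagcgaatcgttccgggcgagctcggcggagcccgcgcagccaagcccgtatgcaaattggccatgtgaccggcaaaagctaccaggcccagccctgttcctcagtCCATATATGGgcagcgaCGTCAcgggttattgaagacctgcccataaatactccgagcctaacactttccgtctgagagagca

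The Nr4a1 window holds 4 cores, all on the opposite strand, the nearest 49 bases before the start. The Dusp1 window holds 3, of which a pair overlaps to form the palindrome TGACGTCA. Junb has 1 core, and Egr2 has 1 core 62 to 66 bases before the start, close to a CArG box at 74 to 83 bases. Both strands were searched. Of 15 genes looked up, 10 had an entry, and 7 of these held the core and 2 the CArG box. Clec11a, Ier5 and Homer1 had an entry and held neither motif, so the sequences printed are all ones with a core. Among all 33469 windows of 250 bases the core occurred in 18.2% and the CArG box in 1.5%. These shares were not matched for base composition, and enrichment was not tested. Entries were not found for Arc, Klf10, Fos, Klf2 and Trib1.

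Nr4a1, an orphan nuclear receptor (also called Nur77) that is induced by calcium and cAMP, had the largest difference of the 7. Over all ranked arrays, which include those chosen by Arc, its pattern was the most like Arc (Pearson r = 0.87). In the arrays of neither group Junb was more like Arc (0.73, against 0.47 for Nr4a1). In experiment A the Nr4a1 log2 level was 9.98, 10.36 and 10.80 (lowest, median, highest) in the Arc-high arrays. In the Arc-low arrays of A it was 8.58, 9.36 and 9.63. In experiment B it was 10.17, 10.27, 10.43 and 10.52 in the 4 Arc-high and 9.09, 9.71 and 9.80 in the 3 Arc-low arrays. Every Arc-high array lay above every Arc-low array of its experiment. The 2 Arc-low arrays of experiment C had 9.09 and 9.25. The difference was 1.04 ± 0.15, or 2.05-fold (adjusted p = 0.00288), with 1.18 within A and 0.81 within B. It passed in all 20 fits that left out a single array. It did not pass with dose as a factor (0.79, adjusted p = 0.557) or without the 3 Arc-low arrays rich in oxytocin and vasopressin RNA described below (0.79, adjusted p = 0.0548). Leaving out experiment A (0.81, adjusted p = 0.477) or the vehicle arrays (0.98, adjusted p = 0.0641) ended the call as well.

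Dusp1, a phosphatase that switches off MAP kinases and is itself induced by their activity, differed by 0.89 ± 0.16 (1.86-fold, adjusted p = 0.0195). In experiment A its log2 level was 10.24, 10.38 and 10.61 (lowest, median, highest) in the Arc-high and 8.77, 9.18 and 9.50 in the Arc-low arrays. The groups of A did not overlap. In experiment B the 4 Arc-high arrays had 10.16, 10.26, 10.37 and 10.52 and the 3 Arc-low arrays 9.50, 10.12 and 10.47. There the groups overlapped, with a difference of 0.30 against 1.27 in A. The B minus A difference of these values was -0.97 ± 0.24, with an unadjusted p of 0.000832 and an adjusted p of 0.375 in limma. The call was lost without A vehicle animal 3, A 50 mg/kg animal 3 or 4, or B vehicle animal 1, one at a time, with adjusted p up to 0.0626. It was also lost with dose as a factor (0.31, adjusted p = 0.795), without experiment A (0.30) and without the vehicle arrays (0.82, adjusted p = 0.209).

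Clec11a, which encodes a secreted lectin-like growth factor for blood and bone precursors, differed by 0.39 ± 0.07 (1.31-fold, adjusted p = 0.0259). Its log2 level in experiment A was 8.60 to 8.90 in the Arc-high and 8.15 to 8.70 in the Arc-low arrays. In B it was 8.85 to 8.98 against 8.47 to 8.61, with no overlap. The call was lost in 7 of the 20 fits without a single array (adjusted p up to 0.0831): those without A vehicle animal 3, A 10 mg/kg animal 4, A 1 mg/kg animal 3, A 50 mg/kg animal 3 or 4, B vehicle animal 4 or B 0.5 mg/kg animal 3. It was also lost with dose as a factor (0.35), within A alone (0.40, adjusted p = 0.112) and within B alone (0.37).

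**Figure D2:**
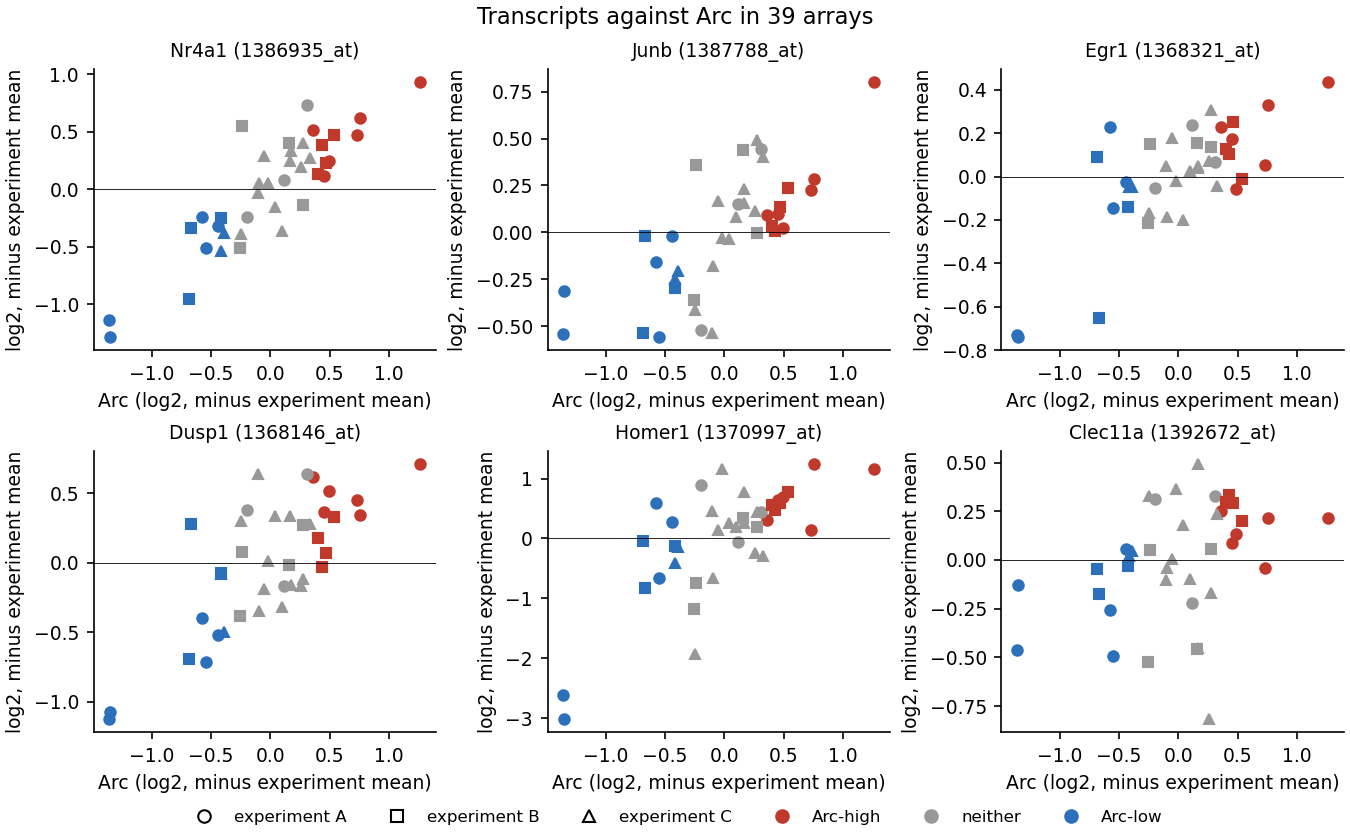
Log2 level of 6 transcripts against Arc in 39 arrays, both after subtraction of the experiment mean, with colour for the Arc group and marker shape for the experiment. Among the grey arrays of neither group the fitted slopes are 0.83 for Nr4a1, 1.19 for Junb, 0.37 for Egr1 and -0.29 for Clec11a, none of which passed. The Homer1 panel shows 1370997_at, chosen as the Homer1 probe set with the largest difference. The 2 arrays of lowest Arc are the lowest 2 for this Homer1 probe set.

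The immediate early transcription factors as a list leaned toward the Arc-high pieces. Of 29 genes listed, 26 were on the array and 21 were bright enough to test. Fosb, Fosl2, Jund, Atf3, Npas4, Ier2, Maff and Btg2 were not tested. Of the 21, 17 had a positive difference, with a median of 0.29 against 0.0027 over all probe sets. At an unadjusted p under 0.05 there were 9 positive and 1 negative. The median was 0.43 within experiment A (17 positive) and 0.25 within B (14 positive). Since the list was chosen with Arc in mind and its genes share their inducers, these counts describe the list and carry no test of it.

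Junb, a partner of Fos in the AP-1 complex, had a difference of 0.50 ± 0.10, which did not pass (adjusted p = 0.0598). Its log2 level was 8.98 to 9.75 in the Arc-high and 8.39 to 8.93 in the Arc-low arrays of experiment A, and 9.14 to 9.37 against 8.60 to 9.12 in B. Junb and Nr4a1 were the members of this list whose groups did not overlap in either experiment. Over all probe sets, 8 (0.072%) lay wholly higher in the Arc-high arrays of both A and B, and 6 wholly lower. Fos, the classic marker of neuronal activation, had 0.97 ± 0.23 (adjusted p = 0.0805). Its Arc-high arrays spread from 7.75 to 9.34 in A and from 7.22 to 8.77 in B, with medians of 8.67 and 8.14 against 7.63 and 7.43 in the Arc-low arrays. The groups overlapped in both experiments.

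In the Egr family of zinc finger factors, Egr1 had 0.43 ± 0.12 (adjusted p = 0.120), Egr2 0.45, Egr3 0.29 and Egr4 0.26. The Egr1 log2 level was 11.41 to 11.91 in the Arc-high and 10.73 to 11.70 in the Arc-low arrays of A, and 11.42 to 11.69 against 10.78 to 11.52 in B. The Krüppel-like factors Klf10 and Klf2 had 0.37 (adjusted p = 0.0723) and 0.63 (adjusted p = 0.122), Klf4 had 0.19 and Klf6 -0.04. The probe sets of Klf2 gave unlike values. Over the fits without a single array the one used, 1376569_at, ran from 0.46 to 0.76. In those fits 1375248_at ran from 0.14 to 0.31 and 1394068_x_at from 0.67 to 0.93, and none of them passed. In the nuclear receptor family of Nr4a1, Nr4a3 had 0.41 and Nr4a2 0.16, the latter with 0.50 in A and -0.38 in B. The 4 negative members were Jun (-0.14), Nfil3 (-0.03), Klf6 and Ier3 (-0.69 ± 0.19, adjusted p = 0.116). Ier3, a regulator of survival under stress, had nearly the same value in both experiments, -0.70 in A and -0.68 in B. None of the members in this paragraph passed.

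The 19 arrays of neither group gave a separate view, because they entered neither side of the comparison. There the log2 level of each probe set was fitted against Arc as a number, again with experiment as a term. Arc itself spans much less in these arrays, from -0.25 to 0.33. No probe set passed in limma, with 429 at an unadjusted p under 0.05, of which 209 (1.88% of those tested) had a positive slope. Over all probe sets 52.5% of slopes were positive. In the immediate early list 17 of 21 slopes were positive with a median of 0.37 log2 units per log2 unit of Arc. In this limma fit (n = 19 arrays), 5 of the list had an unadjusted p under 0.05, all positive: Junb 1.19 ± 0.28 (p = 0.000402), Egr4 0.70 (p = 0.0079), Egr2 1.04 (p = 0.013), Nr4a1 0.83 ± 0.35 (p = 0.0263) and Egr1 0.37 (p = 0.0404). Each had an adjusted p of 0.998. The lowest Junb level of these arrays, 8.20, was in C 1 mg/kg animal 1, the array with a beta-actin ratio of 4.72. The highest Junb (9.57) and Egr4 (9.33) levels were in B 5 mg/kg animal 1. Its array median, 112.3, was the lowest of the 39. Without the array of highest beta-actin ratio no probe set passed either. A fit without B 5 mg/kg animal 1 was not run. Among the 30 effectors 18 slopes were positive and 0 had an unadjusted p under 0.05. A lean to positive slopes was not particular to the immediate early list. Heat shock and unfolded protein genes had 19 of 22 positive, 4 of them at an unadjusted p under 0.05, with a median of 0.22. Between the Arc groups 6 of these 22 were positive. Microglial genes had 11 of 11 positive slopes and striatal genes 17 of 18. Of the other probe sets called between the groups, Dusp1 had a slope of 0.11 ± 0.36, Clec11a -0.29 ± 0.39 and the 4 unnamed ones -0.75 to -0.31.

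**Figure D3:**
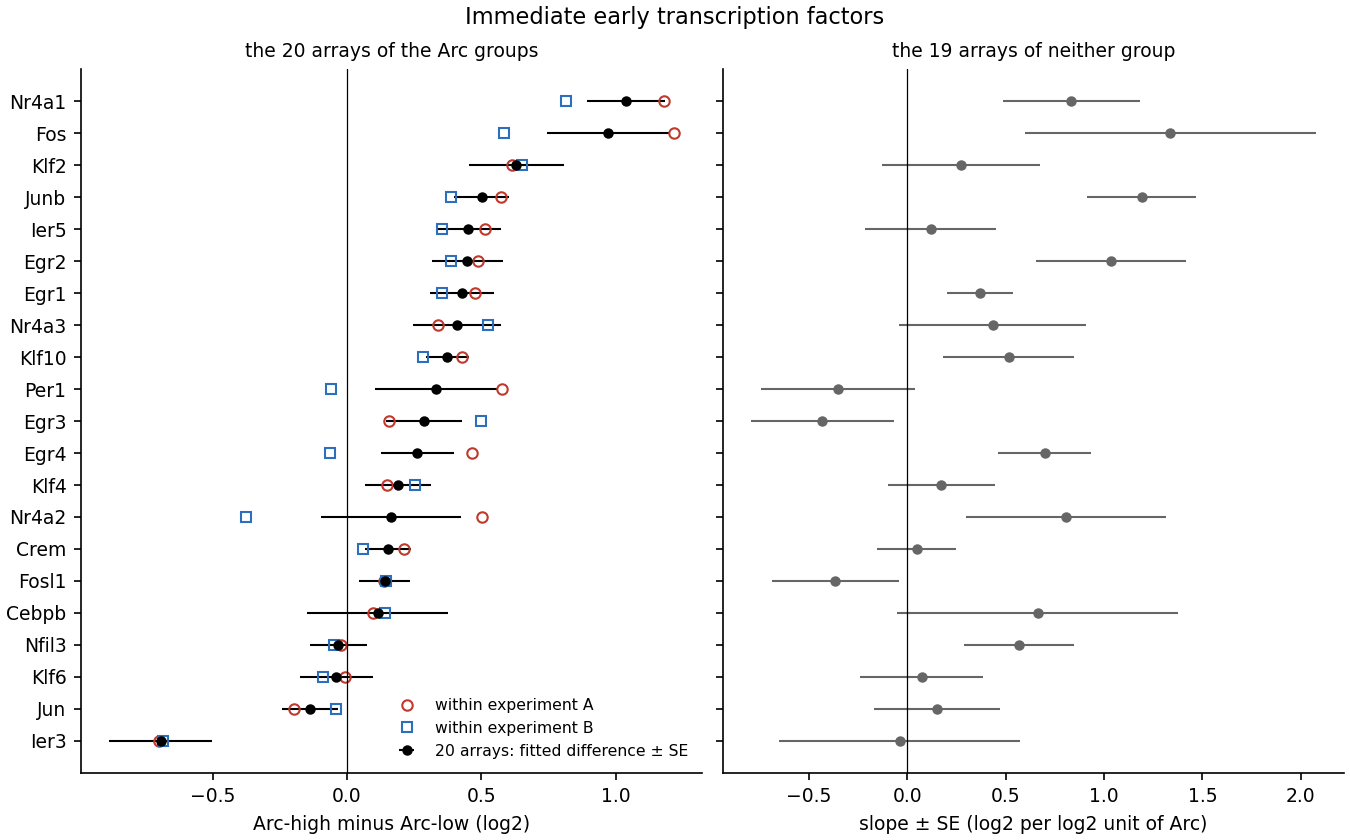
Immediate early transcription factors, with the Arc-high minus Arc-low difference in 20 arrays on the left (black, ± SE, with the within-experiment values of A and B as open markers) and the slope on Arc in the 19 arrays of neither group on the right (± SE). On the left 17 of 21 members lie above 0, and on the right 17 of 21 do. Nr4a1 has the largest difference and Fos and Junb the largest slopes.

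With Arc as a number over all 39 arrays, 66 probe sets passed (0.594%), 36 with a positive and 30 with a negative slope. This setting reuses the 20 chosen arrays and is not independent of the comparison. It shares 2 calls with it, Nr4a1 and Dusp1. From the immediate early list 8 passed, all positive: Nr4a1, Junb, Klf10, Fos, Ier5, Egr1, Egr2 and Egr4. From the effectors 4 passed, all positive: Dusp1, Trib1, Rgs4 and Homer1. After removal of experiment means, the transcripts most like Arc over these arrays were Nr4a1 (Pearson r = 0.87), Egr1 (0.74), Junb (0.74), Dusp1 (0.72) and Fmnl1 (0.65). The 39 values share arrays and normalization, and the coefficients are a description. In the 19 arrays of neither group the same coefficient was 0.73 for Junb, 0.47 for Nr4a1, 0.43 for Egr1 and -0.05 for Dusp1.

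Activity-regulated effectors, the genes that carry out changes at the synapse and in signalling, had smaller differences as a list. Of 30 tested, 22 had a positive difference with a median of 0.15, 0.20 within A and 0.07 within B. At an unadjusted p under 0.05 there were 7 positive and 2 negative, and Dusp1 alone passed. Trib1, a pseudokinase scaffold, had 0.33 ± 0.09 (adjusted p = 0.0974) and Rgs4, which shortens G protein signals, 0.37 ± 0.11 (adjusted p = 0.154). Bdnf, the neurotrophin, had 0.24 and Nptx1, a pentraxin that clusters AMPA receptors, 0.21. Both negative members with an unadjusted p under 0.05 were Scg2, a secretory granule protein (-0.40), and Rcan1, an inhibitor of calcineurin (-0.18).

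Homer1, a scaffold of the postsynaptic density, is read by 5 probe sets that gave unlike values. The probe set 1370997_at, named after its values were seen, had 1.45 ± 0.38 (adjusted p = 0.0974). The other 4 had 0.17 to 0.54. Its log2 level was 7.28 to 8.38 in the Arc-high arrays of A and 4.12, 4.53, 6.48, 7.41 and 7.73 in the 5 Arc-low arrays. The lowest values, 4.12 and 4.53, belong to the 2 arrays of lowest Arc. They lie close to the floor, and without detection calls they are not shown to be above background, so no fold is given. In B the ranges were 7.61 to 7.91 and 6.31 to 7.09, without overlap. A short Homer1 isoform (Homer1a) is known to be induced by activity, but which isoform this probe set reads is not given in the tables used here.

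Genes upstream of Arc or bound by its protein, such as kinases, CREB, Mef2 factors and endophilins, gave a median of 0.11 over 25 tested members, with 18 positive. At an unadjusted p under 0.05 there were 5 positive and 0 negative. Mef2c, a transcription factor that activates Arc, had 0.34 ± 0.12 and the NMDA receptor subunit Grin2a 0.25 ± 0.08 (adjusted p = 0.213 and 0.211). In the arrays of neither group the list's median slope was -0.04.

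Outside the activity lists Clec11a was the only named transcript that passed, and the other values are given for description. The 10 lower transcripts with the smallest p were Ass1, Pgrmc1, Mrfap1, Resp18, Grb10, Ndn, Bex3, Hsdl1, Bex4 and Fam136a. Their differences ran from -0.60 to -0.24, with adjusted p-values of 0.0598 to 0.0805. Within A they ran from -0.83 to -0.24 and within B from -0.28 to -0.07. Grb10 had -0.82 in A and -0.11 in B, and Bex4 -0.71 and -0.07. Ass1 makes argininosuccinate in the urea and nitric oxide cycles (-0.47 ± 0.09). Ndn and Grb10 are imprinted genes, and Resp18 is an endocrine secretory protein. Resp18 had log2 levels of 10.37 to 10.92 in the Arc-high and 11.07 to 12.03 in the Arc-low arrays of A. The highest of these, 11.84, 11.88 and 12.03, came from the 3 arrays rich in Oxt and Avp described below. In B its levels were 10.32 to 10.54 against 10.60 to 10.78, so its groups overlapped in neither experiment. The same 3 arrays were also the highest of the 5 Arc-low arrays of A for Ass1, Pgrmc1, Grb10, Bex3 and Bex4. For Mrfap1, Ndn, Hsdl1 and Fam136a they were not. Higher transcripts with an adjusted p just above the threshold were Cpne9 (0.55), Gls2, a glutaminase (0.42), Ina, a neuronal intermediate filament (0.40), Clec2l (0.37) and Kcnk4, a potassium channel (0.59). Within B they ran from 0.08 (Clec2l, with 0.55 within A) to 0.41 (Ina). Their slopes in the arrays of neither group were negative, from -0.77 to -0.33.

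The neuronal lists differed in sign. General neuronal genes had 10 of 14 positive with a median of 0.07, interneuron genes 3 of 11 with -0.09 and glutamate receptors 8 of 16 with -0.01. The interneuron median changed sign between experiments, with -0.18 within A (4 positive) and 0.08 within B (10 positive). Cortical projection neuron genes had 13 of 18 positive with a median of 0.12, led by Rorb and Nrgn (both 0.37, adjusted p = 0.0974). Synaptic vesicle genes had 21 of 28 positive with a median of 0.12, cholinergic genes 11 of 12 with 0.14 and circadian clock genes 13 of 15 with 0.23. Among the clock genes were Nr1d1 (0.47 ± 0.12, adjusted p = 0.0974) and Dbp (0.34 ± 0.10, adjusted p = 0.145). In the arrays of neither group the synaptic vesicle, cholinergic and clock lists had negative median slopes, -0.15, -0.21 and -0.14, and Nr1d1 had -0.89 (unadjusted p = 0.0044). Of the microglial genes 10 of 11 were negative, with a median of -0.19. It was -0.31 within A (1 positive) and -0.02 within B (5 positive). The complement genes C1qa, C1qb and C1qc had -0.58, -0.57 and -0.54. Their slopes in the other 19 arrays were positive, at 1.20, 1.23 and 0.96, with a list median of 0.47.

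**Figure D4:**
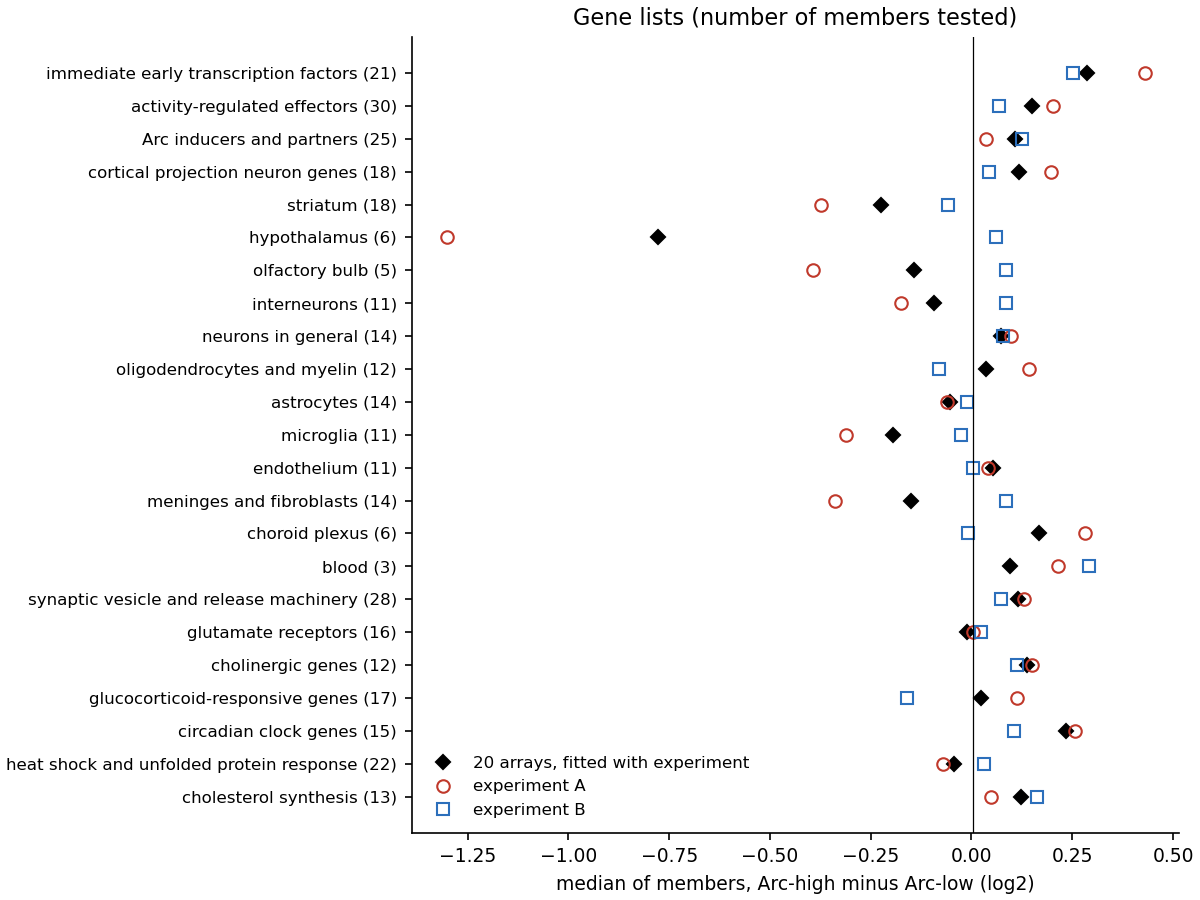
Median Arc-high minus Arc-low difference of the tested members of each list, fitted with experiment (black diamonds) and within experiment A (circles) and B (squares). The number of tested members stands in brackets, and the vertical line is the median of all probe sets (0.0027). Immediate early factors have 0.43 in A and 0.25 in B, while hypothalamic genes have -1.30 in A and 0.06 in B.

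Markers of the hypothalamus differed in level between the Arc groups of experiment A, without passing the test. Oxt, the oxytocin precursor made in the hypothalamus, had a difference of -2.43 ± 0.76 (adjusted p = 0.167), with -3.71 in A and -0.40 in B. In A its log2 level was 5.29, 5.81 and 8.73 (lowest, median, highest) in the Arc-high arrays and 6.70, 7.26, 11.64, 12.05 and 12.21 in the Arc-low arrays. Avp, the vasopressin precursor, had -1.90 ± 0.66. The mean of the pair was 11.73, 12.03 and 12.48 in 3 Arc-low arrays of A (animal 2 at 1 mg/kg and both 50 mg/kg animals, 3 and 4), and these include both arrays of lowest Arc. Of 6 hypothalamic genes tested, 5 were negative with a median of -0.78. Their summed level, as a mean log2 per array, was 7.24 to 8.30 in the Arc-high and 7.70 to 10.28 in the Arc-low arrays of A, and 7.44 to 7.81 against 7.54 to 7.69 in B. The list's Hcrt, Trh, Pomc, Agrp, Ghrh, Sim1 and Otp were too dim to test or not on the array. In a bulk piece, fewer cells of a kind and less RNA per cell cannot be told apart.

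Without the 3 arrays rich in Oxt and Avp, 0 probe sets passed in limma, with 817 at an unadjusted p under 0.05. The Nr4a1 difference was then 0.79 (adjusted p = 0.0548), Dusp1 had 0.61 and Junb 0.37. With the hypothalamic level as a covariate, Nr4a1 had 0.80 (adjusted p = 0.214), Dusp1 0.56 (adjusted p = 0.572) and Clec11a 0.31 (adjusted p = 0.577). The 4 unnamed probe sets had 0.39 to 0.50, and none of the 7 passed. With the striatal, myelin and hypothalamic levels together, Dusp1 had 0.54 (adjusted p = 0.369), and none of the 7 passed either. In experiment B alone, where Oxt and Avp did not set the groups apart, Nr4a1 had 0.81 (adjusted p = 0.698). An array of neither group, a vehicle animal of experiment C, was rich in Oxt as well (11.76), with an Arc deviation of 0.167. Striatal genes such as Drd1 (-0.76), Adora2a (-0.89) and Penk (-0.69) gave a median of -0.23 with 13 of 18 negative. The median was -0.37 within A (4 positive) and -0.06 within B (8 positive). In the arrays of neither group these genes had a median slope of 0.58, with 17 of 18 positive. Their mean level ranged from 8.36 to 10.53 in the Arc-high and from 8.83 to 10.32 in the Arc-low arrays of A, and the groups overlapped in B as well. Adding the striatal level as a covariate left Nr4a1 at 1.05 (adjusted p = 0.00454).

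**Figure D5:**
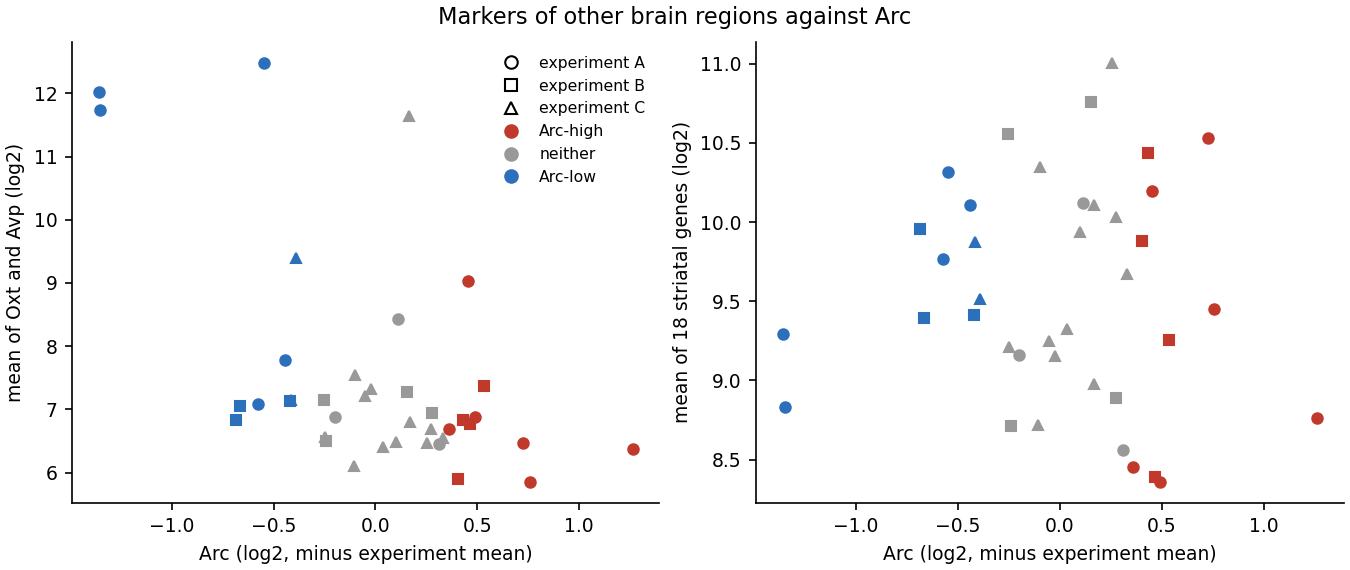
Mean log2 level of Oxt and Avp (left) and of 18 striatal genes (right) against Arc in 39 arrays, with colour for the Arc group and marker shape for the experiment. In 3 Arc-low arrays of experiment A the Oxt and Avp mean is 11.73 to 12.48, and the striatal level overlaps between the groups.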

How the data were processed

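Per the labels, each array held biotin-labelled RNA prepared from 15 ug of total RNA of 1 animal. The authors deposited linear signal intensity for 15923 probe sets, of which 57 are controls. How probe signals were summarized is not stated in the labels, and there are no detection calls. Each array was divided by its median, a floor was set at the 5th percentile (intensity 11.0), and log2 values were quantile normalized. Probe sets with a mean under the 30th percentile, and Arc, were left out of the tests. limma 3.58.1 in R 4.3.3 fitted experiment and Arc group with a mean-dependent variance prior (trend=TRUE), two-sided, with Benjamini-Hochberg adjustment. The fits were tested on simulated data with 100 of 11105 probe sets changed. At a change of 0.5 log2 units 71 were recovered beside 15 false calls, and at 1 log2 unit 99 beside 15. In both settings the false calls were a larger share of the calls than the adjusted p threshold of 0.05 stands for. The calls between the Arc groups may thus hold more false ones than the threshold states, which was not tested. Symbols come from the platform table, which gives 1 symbol for 12783, several for 312 and none for 2771 probe sets. The lists use the brightest probe set per gene. Named genes were, in each direction, the 10 passing or of smallest p, all tested members of both activity lists, up to 4 per other list by p, and the 5 most correlated with Arc. The members and lists were chosen with earlier results of these data known. Alternatives varied scaling, floor, filter, group size and covariates, and left out each array.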

Additional observations from a re-analysis of the deposited data

Results flagged for a closer look

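Within the groups of 10 arrays, 9 of 142 combinations of gene and group held an array far from the rest (gap over range above Dixon's limit of 0.466). Chance alone gives such an array in about 5% of groups of like arrays. All are log2 levels, not centred by experiment, so an offset between experiments can also set an array apart. Among Arc-high arrays, Junb was 9.75 in A vehicle animal 3 (next 9.37), the array of highest Arc. Per1 was 7.003 in B vehicle animal 4 (next 8.40), Ier3 was 6.05 in B 30 mg/kg animal 2 (next 6.95) and Ifrd1 was 8.43 in A 10 mg/kg animal 2 (next 8.77). Among Arc-low arrays, Ier3 was 6.58 in B 0.5 mg/kg animal 4 (next 7.67), Ptgs2 was 9.20 in A 1 mg/kg animal 3 (next 8.33) and Hsdl1 was 9.14 in C 1 mg/kg animal 4 (next 9.01). In the C arrays of neither group Hsdl1 ran from 8.82 to 9.25, a range that holds this value. Nrn1 (10.71, next 11.07) and Dusp5 (8.12, next 7.29) stood apart in the same array, A 50 mg/kg animal 4, which was also rich in Oxt and Avp.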

How the results depend on the processing

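The count of 7 called probe sets depended on the processing. It was 18 with the floor at the 20th percentile, 19 with the filter at the 50th, 35 with array weights, 2 with 13 arrays per group, 1 with groups from quantile normalized Arc and 23 from unscaled Arc. With Arc as a number over 39 arrays it was 66. Covariates gave 60 (striatal score), 18 (beta-actin ratio), 40 (array median), and 40 with the animal number as a replicate block. The labels do not say what same-numbered animals share. Deviations from dose means were compared by correlation within each experiment. The median was 0.0035 between same-numbered animals of different doses (43 pairs) and 0.0029 between differently numbered ones (135 pairs). A median over whole arrays cannot decide whether the numbers mark a block that acts on some transcripts. Parts of the arrays gave 35 (without B), 38 (A alone, 23 of them lower) and 13 (without C). It was 0 with dose as a factor (745 at an unadjusted p under 0.05), without A (521), for B alone (577), without vehicle arrays (1138), with the hypothalamic score (733), with all 3 scores (899) and without the arrays rich in Oxt and Avp (817), the last chosen after seeing the data. Leaving out each array gave 5 to 34. It was above 1.5 times the count without A 1 mg/kg animal 1 (34), B 30 mg/kg animals 3 (26) and 2 (16), B 0.5 mg/kg animal 4 (13), C 1 mg/kg animal 4 (13), C 5 mg/kg animal 3 (13) and A 10 mg/kg animal 2 (11). Leaving out either C array gave the same fit as leaving out all of C, because a lone C array is taken up by the experiment term. For the other arrays the cause was not tested. The slope in the arrays of neither group gave 1 call without the filter. The A against B difference of the effects gave 0 calls in limma, with 681 at an unadjusted p under 0.05. Among 159 named probe sets no called value changed sign, but 225 of 7596 values under the alternatives changed sign with no call on either side. The alternative without first-repeat arrays applied to none of the 20, and experiment C alone could not be fitted. Nr4a1 passed in all 20 fits without a single array, Junb in 2 (without A 1 mg/kg animal 1 and B 30 mg/kg animal 3).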
